A study of Mus musculus with 6 samples.

Results

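Genes that build the spermatid and the mature sperm were examined in RNA of sorted mouse Sertoli cells, the somatic cells that nurse germ cells inside the seminiferous tubules. The set holds 40 genes chosen by name, from the protamines to proteins of the acrosome and the tail. A probe was counted as a member when the platform annotation gave it 1 of these symbols, which took 60 of 45281 probes and covered 35 of the 40 genes. No probe carried the name of Prm2, Tekt2, Tekt4, Meig1 or Tssk3, and these are not analysed here.

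There were 6 Illumina bead arrays in 2 groups of 3, from mice 6 weeks old of strain C57B6J/129SvEv. The cKO group had the genotype Rb1 flox/-; Amh-Cre +. Here Cre driven by the Amh promoter, which is active in Sertoli cells, acts on the floxed allele of the retinoblastoma gene Rb1, and the other allele is null. The control group was Rb1 flox/- and lacked Cre, so every animal had at most 1 working copy of Rb1, and Cre and the loss of that copy cannot be told apart. The cells were sorted by the fluorescence of a Sox9-GFP label. Whether the 3 arrays of a group are 3 animals is not stated in the labels. The tests therefore use the spread between arrays, part or all of which could be technical. The question put to these genes was how much of their message the sorted samples held in each group, and whether it differed.

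Spermatids are the haploid cells that follow meiosis, and they turn from round cells into sperm while held in pockets of the Sertoli cell. Their genes are transcribed in the round stage, many under the activator CREM acting at cAMP response elements, and much of the message is stored before it is translated. Histones are then replaced by transition proteins and protamines, the acrosome forms over the nucleus, and the tail is assembled with its outer dense fibres and fibrous sheath. Sertoli cells take up the residual bodies that spermatids shed.

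The 250 bases before the start site are shown for 4 members on which the results turn: Prm1 and Tnp1, whose group means lay close together, and Gapdhs and Spata3, which had the largest positive differences. The sequences come from RefSeq on the GRCm38.p6 build, 5′ to 3′ on the gene's strand, and for Gapdhs 1 of its listed start sites is shown. Capitals mark each match to TGACNTCA, the cAMP response element with 1 free base, searched on both strands.
Prm1 (chr16:10796824-10797073, minus strand): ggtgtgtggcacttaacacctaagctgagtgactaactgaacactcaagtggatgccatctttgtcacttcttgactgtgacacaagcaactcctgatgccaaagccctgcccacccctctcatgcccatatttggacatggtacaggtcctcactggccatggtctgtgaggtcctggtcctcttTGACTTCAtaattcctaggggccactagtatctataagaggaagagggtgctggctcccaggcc
Tnp1 (chr1:73015900-73016149, minus strand): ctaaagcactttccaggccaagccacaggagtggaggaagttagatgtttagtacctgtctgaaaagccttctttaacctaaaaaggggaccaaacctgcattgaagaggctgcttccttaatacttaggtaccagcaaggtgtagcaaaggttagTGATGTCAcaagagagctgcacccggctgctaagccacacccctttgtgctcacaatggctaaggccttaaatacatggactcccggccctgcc
Gapdhs (chr7:30743682-30743931, minus strand): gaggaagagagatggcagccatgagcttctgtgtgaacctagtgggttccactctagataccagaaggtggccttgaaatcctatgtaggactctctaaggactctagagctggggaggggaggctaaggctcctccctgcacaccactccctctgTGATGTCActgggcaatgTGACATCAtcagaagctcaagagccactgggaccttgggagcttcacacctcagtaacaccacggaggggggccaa
Spata3 (chr1:86021695-86021944, plus strand): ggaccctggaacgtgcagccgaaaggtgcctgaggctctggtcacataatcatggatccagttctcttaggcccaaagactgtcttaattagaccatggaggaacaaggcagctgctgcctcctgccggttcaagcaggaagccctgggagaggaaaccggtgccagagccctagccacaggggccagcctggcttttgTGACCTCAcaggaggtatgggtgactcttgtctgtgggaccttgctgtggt
Counted from the start site, the match lay at -64 to -57 in Prm1, -94 to -87 in Tnp1 and -51 to -44 in Spata3, and Gapdhs held a pair of matches, at -94 to -87 and -76 to -69. Promoters were listed for 35 of the 40 genes, with 47 start sites in all. TGACNTCA was found before 16 of these start sites (34%), in 14 genes, against 7.49% of 32851 listed promoters over the same length. The full palindrome TGACGTCA, which is 1 form of that motif, was found in Izumo1, or 2.13% of member start sites against 1.55% overall. The letters TATAAA, also searched on both strands, were found before the start of Crisp2, Prm2 and Spaca7, at 6.38% of member start sites against 12.4% overall. In gene order Tnp2, Prm3, Prm2 and Prm1 follow one another on chromosome 16, as do Tssk1 and Tssk2.

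Spermatid message was abundant in both groups. Of the 60 member probes, 52 (86.7%) were detected on all 6 arrays, where detection means a score over 0.95, against 38% of all probes. Detection on no array was found for 2 member probes, the only probe of the kinase gene Tssk1 and 1 of Spaca1, against 40.5% of all. Intensity, the linear scanner signal, was above 1000 on every array for at least 1 probe of 28 of the 35 genes, while the median probe of an array read 54.9 to 64.9. It passed 10000 on at least 1 array for 16 member probes. A filter for detection on at least 3 of 6 arrays, whatever the group, was passed by 54 member probes (90%) of 34 genes, against 48.2% of all probes. The Sertoli label of the samples was also checked. Of 18 Sertoli cell markers 15 had a probe and 14 passed that filter. Sox9, the transcription factor behind the sort, and Fshr, the receptor for follicle-stimulating hormone, were detected on all 6 arrays. Some other markers, named after their values were seen, were low on cKO replicate 1: Inha, an inhibin subunit, read 5.42 there against 9.92 to 12.85 on the other arrays. Trf (transferrin) and Amh, the anti-Müllerian hormone gene, read 4.57 and 4.38 on cKO replicate 1, and each was detected on 5 arrays. Others, also named after their values were seen, were not: Rhox5 read 13.1 there, against 12.7 to 13.5 on the other arrays, and Shbg 11.6, against 11.4 to 11.7. Sox9 read 11.82 there, against 11.48 to 12.20, and Fshr 10.30, against 10.40 to 10.85. Sox9, Rhox5, Shbg and Ctsl were not at their lowest on cKO replicate 1, while the remaining measured markers were. Of all genes, by their brightest tested probe, 18.7% were at their lowest on that array and 39.7% at their highest. In bulk RNA, fewer cells of a type and less RNA per cell cannot be told apart.

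Across the series, 43% to 53.5% of probes were detected per array, with a median of 43 or 44 beads per probe. Along the first principal component of the tested probes (58.9% of variance), cKO replicate 1 and control replicate 3 lay farthest apart, at -113.9 and 110.2. Counts without both arrays are given beside the counts with them. The number of arrays limits the precision of every value.

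No spermatid gene passed the test between groups. Of 54 tested member probes 0 had an adjusted p under 0.05 in limma, against 0.142% of 21805 tested probes (31, all higher in cKO). At an unadjusted p under 0.05 there was 1 member probe, of Spata3, against 4.63% of all probes higher and 1.76% lower. With the replicate number as a block, the count at that level was 3 member probes higher, against 9.06% of all, and 1 lower, against 5.88%, and 0 passed. Differences are given as cKO minus control in normalised log2 units with their standard errors. Levels on each array are normalised log2 values, listed for replicates 1, 2 and 3 of a group in turn. The differences ran from -1.99 to 0.83, with a median of 0.39 against 0.08 over all tested probes. They were positive for 44 member probes (81.5%), against 57% of all, and adjusted p-values lay between 0.704 and 0.989. The 95% intervals had a median half-width of 0.84, so a missed threshold does not show that the groups were alike.

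**Figure D1:**
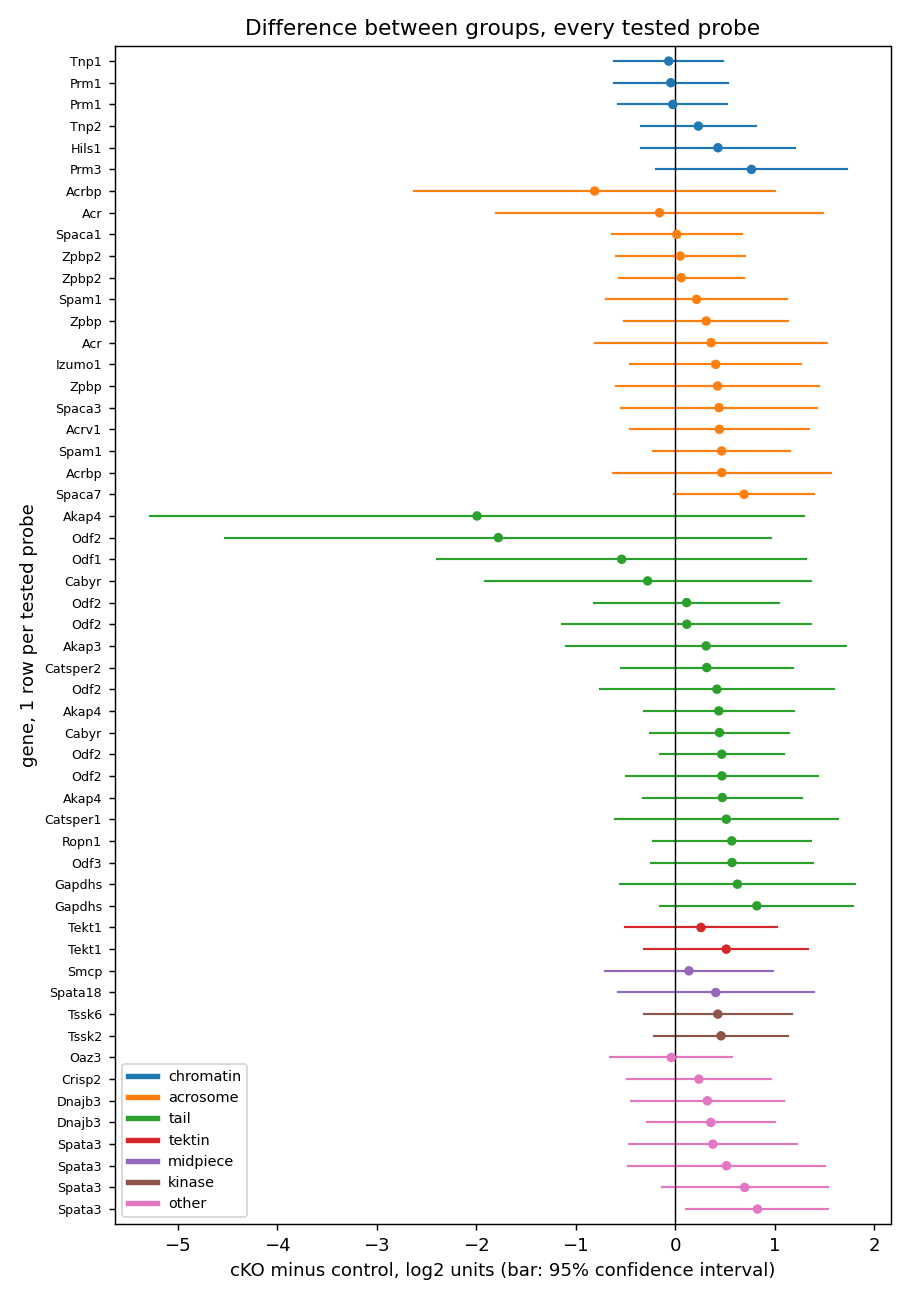
Difference between groups for each of the 54 tested member probes, cKO minus control in log2 units on the x axis, with a point for the estimate and a bar for its 95% confidence interval. Colours mark the role of the gene, and the interval lies wholly above 0 for 1 probe, of Spata3, at 0.11 to 1.54.

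Among genes that pack sperm chromatin, Prm1 and Tnp1 sat at much the same level on all 6 arrays. Tnp2 ranged from 11.19 to 11.73, and Prm3 and Hils1 spread more. Of 6 probes 3 were positive and 0 passed, with a median of 0.10. Prm1 encodes the protamine that replaces histones in the sperm head. Its probe ILMN_2687652 measured 14.86, 14.80 and 14.79 in cKO and 14.90, 14.90 and 14.72 in controls. The groups overlapped, with a difference of -0.02 ± 0.23, a 95% interval from -0.57 to 0.52 and an adjusted p of 0.979 in limma, and the sign turned positive without quantile normalisation, at 0.02 to 0.05. This was the brightest probe of the array on control replicates 1 and 2, where quantile normalisation gives it 1 common value. By intensity it ranked 3, 6 and 7 among all probes in cKO and 1, 1 and 11 in controls. Whether differences are compressed this near the top of the scale was not tested. The probe's scanner intensity, which is not normalised, was 33282, 29139 and 26272 in cKO and 32736, 29302 and 24702 in controls. The second Prm1 probe measured 14.82, 14.57 and 14.47 in cKO and 14.72, 14.69 and 14.58 in controls, a difference of -0.04 ± 0.24.

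Tnp1, a transition protein that takes the place of histones before protamines arrive, measured 14.08, 14.21 and 14.21 in cKO and 14.27, 14.15 and 14.28 in controls. Its difference was -0.07 ± 0.23, with an interval from -0.61 to 0.48, and it turned positive without quantile normalisation, at 0.05 to 0.08. The groups overlapped. Tnp2, the partner transition protein, measured 11.32, 11.50 and 11.73 in cKO and 11.35, 11.19 and 11.31 in controls, a difference of 0.23 ± 0.25. On this scale control replicate 1 fell inside the cKO range. The scanner intensity of Tnp2 did not overlap, at 2930, 3286 and 3153 in cKO and 2696, 2098 and 2332 in controls. Without quantile normalisation the Tnp2 difference was 0.39 to 0.42. Prm3, encoded between Tnp2 and Prm2, measured 11.92, 11.73 and 11.36 in cKO and 11.69, 10.82 and 10.20 in controls. Control replicate 1 fell inside the cKO range and the other controls lay below it, with a difference of 0.77 ± 0.41 and an adjusted p of 0.766 in limma. It was 1.16 without control replicate 1, 0.42 without control replicate 3 and 0.29 with control replicate 3 and cKO replicate 1 left out. Hils1, a linker histone of spermatids, differed by 0.43 ± 0.33.

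Acrosome and egg binding genes leaned toward cKO, with 13 of 15 tested probes positive, a median of 0.36 and 0 past the threshold. Spaca7, a protein of the acrosome, measured 10.93, 10.56 and 10.65 in cKO and 10.50, 9.81 and 9.75 in controls. The groups did not overlap, and the difference was 0.69 ± 0.30 with an adjusted p of 0.766 in limma, and it was 0.45 with control replicate 3 and cKO replicate 1 left out. Acrv1, a protein of the acrosomal vesicle, measured 12.48, 12.11 and 12.13 in cKO and 12.58, 11.28 and 11.53 in controls. Control replicate 1 was the highest of the 6 arrays and the other controls were the lowest, with a difference of 0.44 ± 0.38. Spaca3, a lysozyme-like protein of sperm, and Izumo1, the sperm protein that joins the membranes of egg and sperm, differed by 0.44 ± 0.42 and 0.41 ± 0.37. The probes of Zpbp, which binds the egg coat, gave 0.31 ± 0.35 and 0.43 ± 0.44, and those of Spam1, a sperm hyaluronidase, 0.21 ± 0.39 and 0.47 ± 0.29. Spaca1 and both probes of Zpbp2 lay near no difference, at 0.02, 0.05 and 0.06.

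Acr, the acrosomal protease acrosin, and Acrbp, its binding protein, gave opposite signs with different probes. Acr probe ILMN_1224629 measured 11.63, 11.16 and 10.96 in cKO and 12.00, 10.50 and 10.17 in controls, a difference of 0.36 ± 0.50. Acr probe ILMN_2601684 measured 7.70, 6.54 and 7.23 in cKO and 7.13, 5.98 and 8.84 in controls, a difference of -0.16 ± 0.70. On control replicate 3 the former read its lowest value and the latter its highest. Acrbp probe ILMN_2602125 measured 7.88, 7.97 and 9.79 in cKO and 9.03, 8.19 and 10.85 in controls, a difference of -0.81 ± 0.77. Acrbp probe ILMN_1217276 measured 8.15, 8.35 and 8.72 in cKO and 8.74, 8.13 and 6.95 in controls, a difference of 0.47 ± 0.47. Control replicate 3 was again the highest array for one probe and the lowest for the other.

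Tail genes of the outer dense fibres, the fibrous sheath and the membrane channels were positive at 15 of 19 tested probes, with a median of 0.44 and 0 past the threshold. Gapdhs, the sperm form of a glycolytic enzyme bound to the fibrous sheath, measured 14.03, 13.93 and 13.83 in cKO and 13.72, 13.42 and 12.20 in controls with its brighter probe. The groups did not overlap, control replicate 3 lay far below the rest, and the difference was 0.82 ± 0.41 with an adjusted p of 0.766 in limma. It was 0.36 without control replicate 3 and 0.31 without cKO replicate 1 as well. The second Gapdhs probe overlapped between groups and gave 0.63 ± 0.51. Ropn1, a protein of the fibrous sheath, measured 11.74, 11.67 and 11.68 in cKO and 11.64, 10.49 and 11.26 in controls, with no overlap and a difference of 0.57 ± 0.34. Odf3, an outer dense fibre protein, differed by 0.57 ± 0.35, and Akap3, an anchor for protein kinase A in the sheath, by 0.31 ± 0.60. The calcium channel genes Catsper1 and Catsper2 differed by 0.51 ± 0.48 and 0.32 ± 0.37.

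Odf1, a main protein of the outer dense fibres, had 1 array apart from the rest. It measured 11.20, 13.84 and 14.53 in cKO and 13.97, 13.42 and 13.79 in controls, so cKO replicate 1 stood alone below the other 5 arrays. The difference was -0.54 ± 0.79, and it was 0.46 without that array. A gap of over 2 log2 units below the other arrays was found on cKO replicate 1 for 1 of 60 member probes (1.67%), against 0.961% of all probes.

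Among the smaller role groups, Tekt1, a filament protein of the axoneme, measured 12.81, 12.53 and 12.37 in cKO and 12.69, 11.93 and 11.54 in controls with its brighter probe, and its probes differed by 0.51 ± 0.35 and 0.26 ± 0.32. Smcp, a protein of the mitochondrial sheath, measured 13.60, 14.05 and 13.80 in cKO and 14.38, 13.42 and 13.23 in controls. Both extremes of Smcp were controls, replicate 1 the highest and replicate 3 the lowest, and the difference was 0.14 ± 0.36. The testis-specific serine kinase Tssk2 measured 12.64, 12.76 and 12.92 in cKO and 12.73, 11.98 and 12.23 in controls, a difference of 0.46 ± 0.29, and Tssk6 measured 12.67, 13.32 and 13.32 in cKO and 13.07, 12.53 and 12.43 in controls, a difference of 0.43 ± 0.32. For both, control replicates 2 and 3 were the lowest arrays. Tssk1 was not well above background on any array.

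Spata3, a gene expressed in testis, had the smallest p of the set. Probe ILMN_1221195 measured 12.76, 13.06 and 13.25 in cKO and 12.55, 12.28 and 11.76 in controls, with no overlap. Its difference was 0.83 ± 0.30, with a 95% interval from 0.11 to 1.54, an unadjusted p of 0.0287 and an adjusted p of 0.704 in limma. Probe ILMN_2751239 measured 12.70, 12.94 and 13.16 in cKO and 12.83, 12.24 and 11.64 in controls, a difference of 0.70 ± 0.36 that was 0.40 without control replicate 3, and the other 2 probes gave 0.52 and 0.38. In these 3 probes the groups overlapped, with control replicate 1 within or above the cKO values. Oaz3, the antizyme of spermatids that limits polyamine synthesis, measured 13.26, 13.57 and 13.72 in cKO and 13.69, 13.34 and 13.65 in controls. The difference of Oaz3 was -0.04 ± 0.26 and it turned positive without quantile normalisation, at 0.16 to 0.18. Dnajb3, a chaperone of spermatids, gave 0.36 ± 0.27 and 0.32 ± 0.33, and Crisp2, a secretory protein of the acrosome and tail, 0.24 ± 0.31.

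Arrays of the groups were disjoint for 6 member probes. In 5 of them (of Spata3, Spaca7, Gapdhs, Ropn1 and Odf2) cKO was higher, or 9.26% of member probes against 8.04% of all tested probes. In 1, another Odf2 probe, cKO was lower, or 1.85% against 4.01%. Both shares are near those of all probes. That lower Odf2 probe was parted by little, with a highest cKO value of 5.1656 and a lowest control value of 5.1695, and its scanner intensities overlapped. Leaving out control replicate 1 changed the count of disjoint probes most, to 35 of 54 higher (64.8%) and 1 lower (1.85%), against 23% and 11.1% of all probes. The counts were 14 and 2 of 54 without cKO replicate 1, against 10.3% and 6.09%, a larger share higher and a smaller share lower. They were 8 and 2 of 54 without cKO replicate 3, both smaller shares than the 16.8% and 12.4% of all probes. The members' median difference became 0.63 without control replicate 1, 0.22 without control replicate 2 and 0.22 without control replicate 3. Medians over all tested probes in those fits were 0.11, 0.14 and -0.01 in turn. In each of the 6 fits that left out 1 array 0 member probes passed in limma. Without control replicate 1 an unadjusted p under 0.05 was reached by 14 of 54 member probes higher and 0 lower, against 9.25% and 2.78% of all probes. Without cKO replicate 1 it was reached by 1 higher and 0 lower, against 2.95% and 0.793%. It was reached by 0 in the other 4 fits. Shares of all probes higher and lower were then 3.25% and 1.31% without cKO replicate 2, and 5.08% and 5.64% without cKO replicate 3. They were 3.94% and 0.908% without control replicate 2, and 2.82% and 1.19% without control replicate 3. Without cKO replicate 1 and control replicate 3 together the members' median difference was 0.27, against -0.03 over all tested probes. In that fit 0 of 54 member probes passed. cKO was then higher on every array for 15 member probes and lower for 3, against 12.1% and 15.4% of all.

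Control replicate 1 carried more spermatid message than the other controls. For 45 of 54 member probes (83.3%) it lay above both of them, against 36.4% of all tested probes. For 48 (88.9%) it was at or above the lowest cKO array, against 79.6% of all. Control replicates 2 and 3 were both below all 3 cKO arrays for 35 member probes (64.8%), against 23%. This is by definition the count given above for disjoint probes without control replicate 1. With the brightest tested probe of each of the 34 genes, the median deviation from the mean of 6 arrays was 0.14, 0.09 and 0.28 in cKO and 0.31, -0.43 and -0.43 in controls. Control replicate 2 held the lowest value for 16 of 34 genes (47.1%), against 9.69% of all genes. Control replicate 3 held it for 13 (38.2%), against 43.8%, so that share is not above the one over all genes. The labels do not set control replicate 1 apart.

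**Figure D2:**
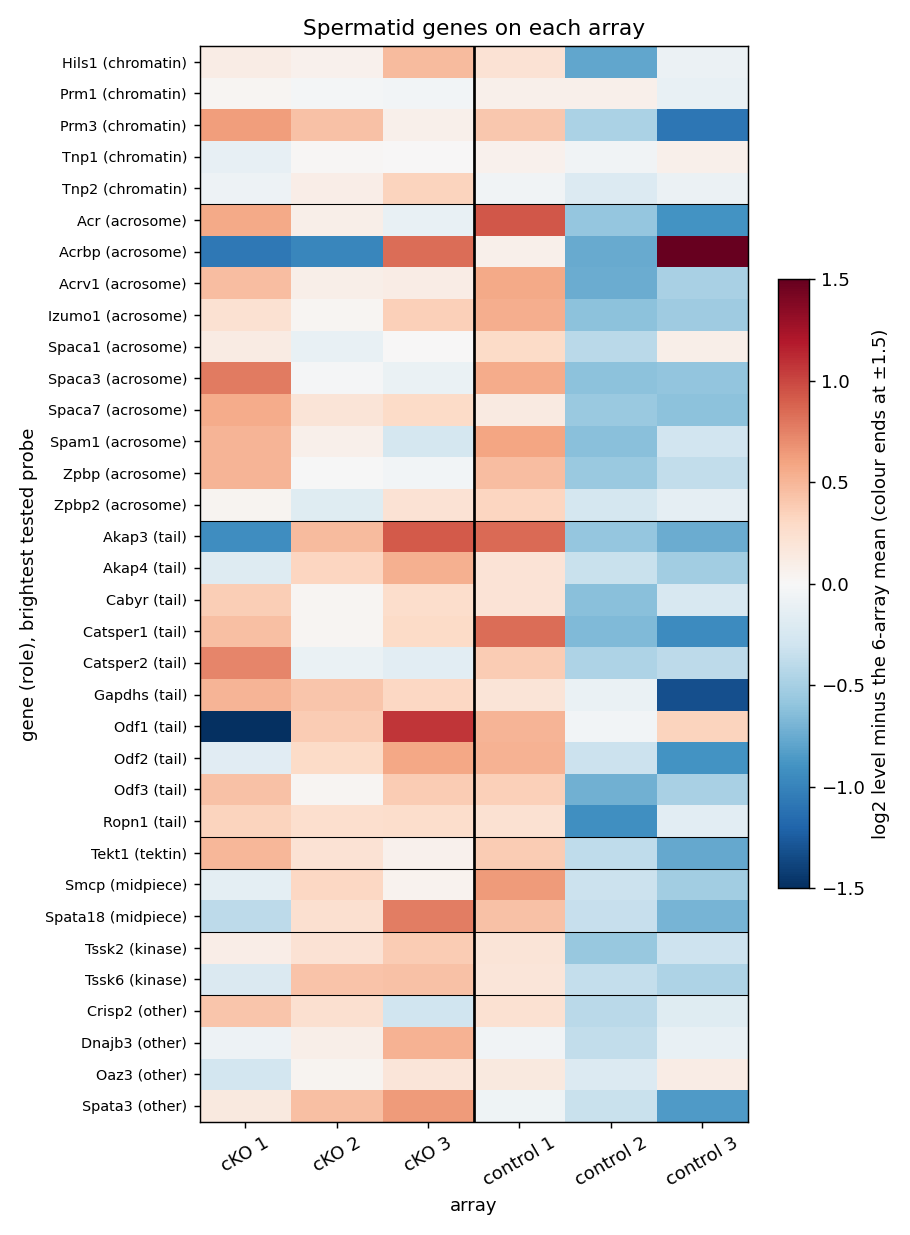
Normalised log2 level of the 34 measured genes on each array, as the deviation from the gene's mean over 6 arrays, with cKO left and controls right of the line and genes grouped by role. Control replicates 2 and 3 are mostly blue (lower), with medians of -0.43 and -0.43, and control replicate 1 is mostly red, at 0.31.

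Same-numbered arrays of the groups gave different answers. In the first pair 12 of 34 genes were higher in cKO (35.3%, against 60.6% of 12277 genes). The median was -0.09, against 0.149 over all genes. In the second pair 32 of 34 were higher (94.1%, against 50.2%), with a median of 0.64, against 0.003. In the third pair it was 30 of 34 (88.2%, against 65.4%), with a median of 0.62, against 0.257.

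Some probes were bright on control replicate 3 alone, a pattern chosen after its values were seen. There 4 of 60 member probes (6.67%) read over 2 log2 units above the highest of the other 5 arrays, against 2.15% of all probes. Akap4, the main protein of the fibrous sheath, held 2 of them. Probe ILMN_2648635 had intensities of 69, 75.6 and 67.8 in cKO and 78, 60.9 and 2018 in controls, and ILMN_3051805 had 57.5, 58 and 53.5 in cKO and 56.7, 49.5 and 579.2 in controls. The bright value was in each case that of control replicate 3. The brighter Akap4 probes did not share it: ILMN_2773339 measured 13.04, 13.55 and 13.76 in cKO and 13.43, 12.89 and 12.71 in controls on the log2 scale, and ILMN_3128227 measured 12.82, 13.38 and 13.64 in cKO and 13.29, 12.63 and 12.51 in controls. Control replicate 3 was the lowest array for both. Differences of the tested Akap4 probes were thus 0.44 ± 0.32, 0.47 ± 0.34 and, for ILMN_2648635, -1.99 ± 1.40, and the last was -0.12 without control replicate 3.

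Odf2, a protein of the outer dense fibres and of centrioles, showed the same split. Probe ILMN_1220255 measured 4.85, 5.17 and 5.17 in cKO and 5.17, 5.40 and 9.94 in controls, a difference of -1.78 ± 1.17, with control replicate 3 alone above the rest. That difference was -0.23 without control replicate 3. Probe ILMN_2659351 measured 13.57, 13.55 and 13.59 in cKO and 13.40, 13.14 and 12.78 in controls, a difference of 0.47 ± 0.27, with control replicate 3 lowest. Probe ILMN_1245003 measured 13.35, 13.80 and 14.10 in cKO and 14.03, 13.19 and 12.62 in controls, a difference of 0.47 ± 0.41, and the other 3 Odf2 probes gave 0.42, 0.12 and 0.11. Spata18, which acts in mitochondrial quality control, had 1 probe at 11.25, 11.88 and 12.42 in cKO and 12.08, 11.30 and 10.94 in controls, a difference of 0.41 ± 0.42. Its other probe, detected on 1 array of each group and not tested, measured 4.52, 4.70 and 6.14 in cKO and 4.66, 4.57 and 9.64 in controls. Cabyr, a calcium-binding protein of the fibrous sheath, measured 12.77, 12.43 and 12.66 in cKO and 12.60, 11.77 and 12.15 in controls with ILMN_2664327, a difference of 0.44 ± 0.30. Cabyr probe ILMN_3157530 measured 7.77, 7.95 and 9.75 in cKO and 8.77, 7.66 and 9.86 in controls, a difference of -0.28 ± 0.70. Of 13 genes with more than 1 tested probe, 5 had probes of both signs, namely Acr, Acrbp, Akap4, Cabyr and Odf2. The place of each probe in its transcript was not determined.

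**Figure D3:**
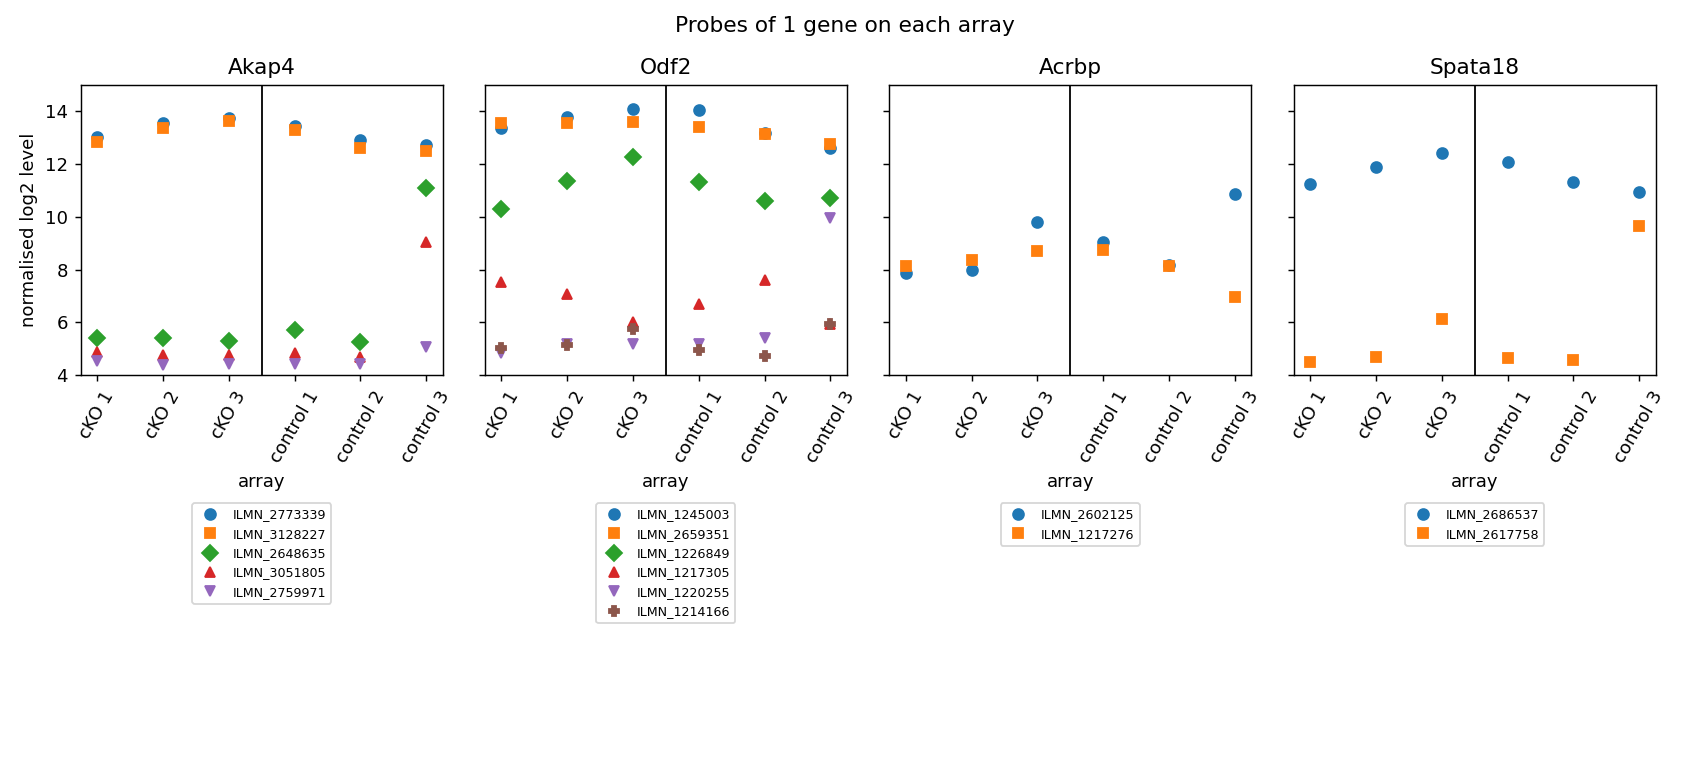
Normalised log2 level of every probe of Akap4, Odf2, Acrbp and Spata18 on each array, with 1 marker shape per probe. On control replicate 3 probes of Akap4, Odf2 and Spata18 reach 11.09, 9.94 and 9.64, against 6.14 or less on the other arrays, while the brightest Akap4 probe is at its lowest there.

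Other germ cell genes were set beside the members. Of 17 regulators of transcription and translation in spermatids, 16 were measured, with 13 positive, 0 past the threshold in limma, 0 at an unadjusted p under 0.05 and a median of 0.26. Chd5, a chromatin remodeller of spermatids, measured 11.25, 10.77 and 10.70 in cKO and 10.80, 9.61 and 8.65 in controls, a difference of 1.22 ± 0.53. Control replicates 2 and 3 were again lowest. Taf7l, a testis form of a TFIID subunit, and Fhl5, a coactivator of CREM, differed by 0.85 ± 0.41 and 0.62 ± 0.37. Of 30 further spermatid genes 25 were measured, with 23 positive, 0 past the threshold in limma, 0 at an unadjusted p under 0.05 and a median of 0.35. Calr3, a chaperone of the endoplasmic reticulum in spermatids, and Spag4, a protein of the nuclear envelope, differed by 0.73 ± 0.37 and 0.66 ± 0.32. Over 12277 genes with their brightest tested probe, 61.3% were positive and the median was 0.12.

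Per-array medians of the further spermatid genes were 0.26, 0.10 and 0.18 in cKO and 0.36, -0.49 and -0.37 in controls, with control replicates 2 and 3 lowest, as for the members. Spermatocyte markers, 11 of 14 measured, stood at 0.47, -0.03 and 0.02 in cKO and 0.18, -0.60 and -0.38 in controls, and Sycp3, Hormad1 and Dmc1 were detected on no array. Of the 11 spermatocyte markers 9 were positive, with a median difference of 0.26 and 0 at an unadjusted p under 0.05 in limma. Spermatogonia markers, 10 of 12 measured, stood at 0.69, 0.06 and 0.19 in cKO and -0.12, -0.06 and -0.69 in controls, and Zbtb16 and Nanos3 were detected on no array. Of these 10, 9 were positive, with a median difference of 0.69, above the 0.41 of the members. At an unadjusted p under 0.05 in limma 3 were higher, against 4.63% of all tested probes, and 0 passed the threshold. Sertoli cell markers stood at -0.43, 0.08 and -0.05 in cKO and -0.002, 0.41 and 0.12 in controls, and 13 of 14 had a negative difference with 0 past the threshold in limma and 1, Sox8, at an unadjusted p under 0.05. This median was highest on control replicate 2, but summed intensity of the same markers was highest on cKO replicate 2, at 80130, and control replicate 2, at 75981, was the lowest control. The median over all genes was 0.20, 0.08 and -0.05 in cKO and 0.04, 0.06 and -0.30 in controls.

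**Figure D4:**
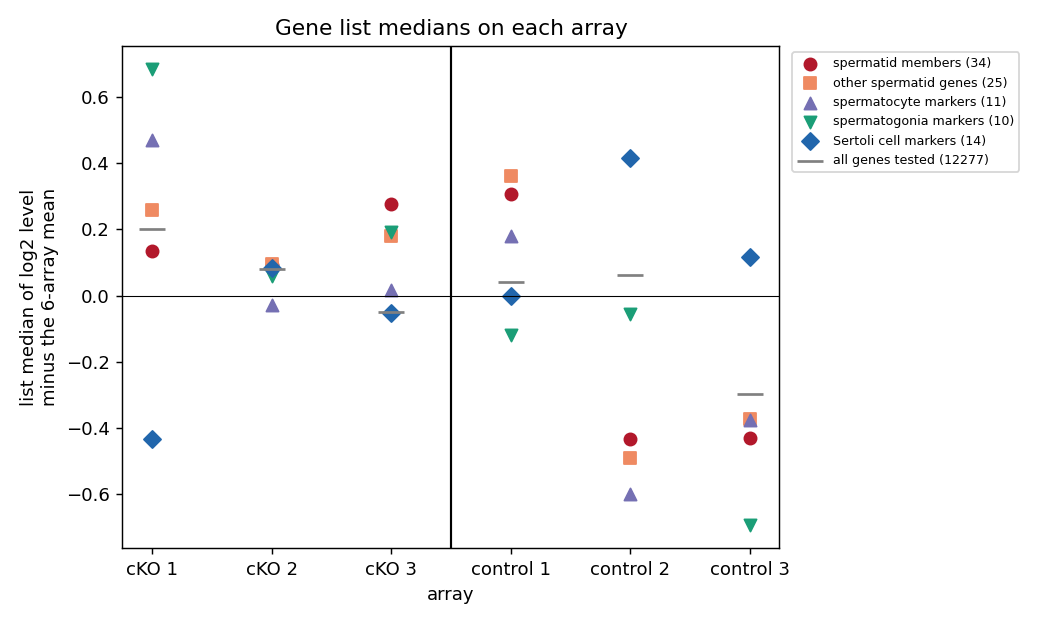
Median over the genes of each list of the log2 level minus its 6-array mean, by array, with the number of measured genes in brackets and a grey bar for all 12277 genes. Spermatid members, other spermatid genes and spermatocyte markers lie at -0.37 or lower on control replicates 2 and 3, while Sertoli cell markers lie above 0 there.

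Summed intensity of the 34 member genes was 242441 to 264720 in cKO and 157624 to 268378 in controls, and the highest control, replicate 1, exceeded every cKO array. Summed intensity of spermatocyte markers was 35578 to 52739 in cKO and 25516 to 45584 in controls, and that of spermatogonia markers 5628 to 6466 in cKO and 3792 to 5051 in controls. For Sertoli cell markers it was 68484 to 80130 in cKO and 75981 to 79029 in controls. Markers of other somatic cells had higher sums in most cKO arrays: Leydig cell markers, 5 of 8 measured, at 2772 to 10077 in cKO and 1331 to 2985 in controls, and peritubular myoid markers, 5 of 7, at 5621 to 13536 in cKO and 2442 to 2755 in controls. Endothelial markers, 7 of 8 measured, summed to 1832 to 4294 in cKO and 636 to 705 in controls. Macrophage and leukocyte markers, 2 of 8 listed symbols (Adgre1 is listed also as Emr1), summed to 559 to 622 in cKO and 225 to 246 in controls. A sum weighs the brightest genes most. Median differences were 1.256 for Leydig, 0.912 for myoid, 1.274 for endothelial and 1.19 for leukocyte markers, with 0 past the threshold in limma. At an unadjusted p under 0.05 in limma 2 of 5 Leydig, 4 of 5 myoid, 4 of 7 endothelial and 1 of 2 leukocyte markers were higher. By that measure 0 were lower, against 4.63% higher and 1.76% lower of all tested probes. The gene with the smallest p of each list differed by more than the list median. Star (Leydig, detected on 3 arrays) differed by 2.004 ± 0.374, Acta2 by 1.806 ± 0.412, Robo4 by 3.685 ± 0.469 and Cd74 by 1.699 ± 0.312. Of these lists Hsd3b1 (Leydig), Cnn1 and Tagln (myoid), Kdr (endothelial) and Ptprc and Itgam (leukocyte) were detected on no array. The part of these cell types in the members' differences was not tested.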

How the data were processed

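The scanner tables hold, per the file headers, a mean bead intensity, a detection score and a bead number for each probe. The deposited detection score is a fraction from 0 to 1 that rises with signal. BeadStudio is named, without a version, in the submitters' processing notes. The deposited series table holds log2 values. From the values, these are log2 intensities scaled on the 75th percentile of each array and then centred on the probe's median, a step whose tool no source names. Probe IDs were joined through this relation, for 45281 of 45281 probes within 0.000395. Of these 34885 carry 1 gene symbol in the platform annotation, 18 carry several and 10378 carry none.

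The neqc function of limma 3.58.1 (R 4.3.3) removed background at offset 16 and applied quantile normalisation. Probes with a score over 0.95 on at least 3 of 6 arrays were fitted by lmFit and eBayes, two-sided, without covariates. Benjamini-Hochberg adjustment ran over 21805 probes, and the fit was tested on simulated data. Deviations of same-numbered arrays correlated at 0.262, 0.410 and 0.473 across probes, so the numbers were taken as pairs and entered as a block in an alternative. The pairing rests on that correlation, which does not single out the first pair, since cKO replicate 1 correlated with control replicate 2 at 0.263. Numbers in the scanner headers also run on within some pairs, but what they stand for is not stated. Members, gene lists and tests were chosen with earlier results of these data known.

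Values on every array are given for the protamine and transition protein probes, the brightest and the smallest-p probe of each role, the 5 largest differences each way, and probes of a gene that differ in sign. Of the other lists, up to 4 genes with the smallest p could be named. Ropn1, the untested bright probes, Sox9, Fshr, Amh, Rhox5, Shbg and Ctsl were named outside this rule. Alternatives were other background corrections, scalings and filters, the deposited values, the block and left-out arrays.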

Additional observations from a re-analysis of the deposited data

How the results depend on the processing

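In every setting tried 0 member probes passed, and the members' median difference was positive, from 0.22 to 0.63. Above the median of all tested probes it lay by 0.077 (without control replicate 2) to 0.52 (without control replicate 1). Scaling other than quantile normalisation moved the median of all tested probes from 0.078 to 0.130 (median scaling), 0.118 (none between arrays) and 0.097 (deposited values), and that of the members to 0.516, 0.504 and 0.480. Of all tested probes 31 passed. The number was 53 with no normalisation between arrays, 12 with normexp at offset 50, 13 with no background correction, 1 with no filter on dim probes and 0 with the replicate block (1975 rises and 1282 falls at unadjusted p under 0.05 in limma). It was 6 without cKO replicate 1 and control replicate 3 together, and 0 to 15 leaving out 1 array at a time. Disjoint member probes, of 54 tested, numbered 3 with the deposited values (all probes 5.43% and 3.24% higher and lower), 18 without cKO replicate 1 and control replicate 3, and 8 to 36 leaving out 1 array. They were 7 higher and 1 lower without cKO replicate 2 (all probes 10.3% and 6.97%), 5 higher and 3 lower without control replicate 2 (14.3% and 5.49%) and 6 higher and 2 lower without control replicate 3 (9.11% and 8.6%). The replicate block changed no call of a member (smallest adjusted p 0.284 in limma). At an unadjusted p under 0.05 it gave 3 member probes higher (Spaca7, Prm3 and Spata3) and 1 lower (Acrbp ILMN_2602125), against 9.06% and 5.88% of all probes.

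Of 478 values of 32 named probes under the alternatives, 39 of 14 probes turned in sign. Under median scaling, no scaling and the deposited values in turn, Tnp1 gave 0.076, 0.064 and 0.052, Prm1 0.047, 0.035 and 0.023 (second probe 0.026, 0.014 and 0.002) and Oaz3 0.185, 0.173 and 0.161. Without cKO replicate 1 and control replicate 3 together, Tnp1 gave 0.002, Oaz3 0.132, Acrbp ILMN_2602125 0.271, Odf1 0.487, Cabyr ILMN_3157530 0.631, Odf2 ILMN_1217305 -0.609 and the Acr probes -0.189 and 0.332. Over all fits that left out arrays, singly or these together, Tnp1 ran from -0.107 to 0.002, Prm1 from -0.107 to 0.006 (second probe -0.187 to 0.030), Oaz3 from -0.149 to 0.132, Smcp from -0.085 to 0.491 and Odf1 from -1.206 to 0.487. Cabyr ILMN_3157530 ran from -0.906 to 0.631, the Acrbp probes from -1.432 to 0.271 and -0.027 to 0.867, and the Acr probes from -0.189 to 0.916 and -0.825 to 0.604. Odf2 ran from -0.126 to 0.623 (ILMN_1214166), -0.609 to 0.550 (ILMN_1217305) and -0.060 to 0.922 (ILMN_1226849). The cause of these changes was not tested.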
